A study of Mus musculus with 12 samples.

Results

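The genes Nob1, Nsa2, Pitpnb, Snx5, Cox7a2l and Mmgt1, which lie outside the ribosomal protein and translation factor families, were chosen by their lower translation efficiency (TE) in the mouse brain after AZD-8055, a drug that competes with ATP for the kinase mTOR. They are 6 of the 20504 genes in the table of reads counted on coding sequence (CDS). TE is the footprint count of a gene divided by its RNA-Seq count, each count first divided by the size factor of its library, and it is given on the log2 scale. Because the choice used the comparison of treated with vehicle brains, every value of the 6 genes in that comparison is a description without a test. The RiboTag libraries came from other mice that had no part in the choice, and these were tested.

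The mice were 3-month-old crosses of Camk2a-Cre, whose Camk2a promoter drives Cre in principal excitatory neurons of the forebrain, with RiboTag, whose allele of Rpl22 gains an HA epitope tag after recombination. Mice A and B were given vehicle, a Captisol solution that the labels call untreated, and mice C and D a single dose of 100 mg/kg AZD-8055, both by oral gavage, and the right frontal lobe was taken 1 h later. Ribosome footprints and poly(A)-selected RNA were both sequenced from each of these 4 brains. Mice E and F, labelled untreated, each gave RNA-Seq of the homogenate (input) and of the polysomes pulled down through the tag (IP). All groups carried both alleles, and 2 mice per group limit the precision of every spread below.

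mTOR adds phosphate to the 4E-BP proteins and, through LARP1 and other factors, sets how well ribosomes load onto mRNAs with a terminal oligopyrimidine (TOP) motif, a C at the cap followed by a run of pyrimidines. The classical TOP mRNAs encode ribosomal proteins, elongation factors and the poly(A)-binding protein, so that an mTOR inhibitor lowers the synthesis of the translation machinery itself. The 6 genes described here do other work. Nob1 is the endonuclease that makes the last cut at the end of the small-subunit rRNA, and Nsa2 is an assembly factor of the large ribosomal subunit. Pitpnb moves phosphatidylinositol between membranes, and Snx5 is a sorting nexin that takes part in retrieving cargo from endosomes. Cox7a2l promotes the assembly of respiratory chain supercomplexes, and Mmgt1 is a subunit of the endoplasmic reticulum membrane protein complex (EMC), which inserts proteins into that membrane.

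The CDS table held 3503873 to 9259938 footprints per library, a 2.64-fold range whose top was mouse A, and 9309496 to 15585831 reads per RNA-Seq library. Counts on all exons of a gene, deposited for the 8 RNA-Seq libraries, summed to 16796999 to 27878212. Of 41 marker genes of 7 brain cell types, 0 differed in exon RNA between treated and vehicle brains (edgeR, adjusted p under 0.05), and 6 did at an unadjusted p under 0.05, of which 3 were excitatory neuron markers, all higher. In whole tissue, fewer cells of a type and less RNA per cell cannot be told apart.

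RefSeq (GRCm38.p6, the assembly that mm10 names, which the submitters' processing notes give) places Nob1 at chr8:107412489-107425038, Nsa2 at chr13:97129427-97137926, Pitpnb at chr5:111330697-111388359, Snx5 at chr2:144250123-144270902, Cox7a2l at chr17:83501917-83514333 and Mmgt1 at chrX:56585512-56597944. Nsa2 has 2 named pseudogenes in that annotation, and whether reads were split with them was not tested. The bases around the annotated transcription start are shown because a TOP motif would lie there. Each line runs 5′ to 3′ on the strand of the gene, from 10 bases before the start to 20 bases from it on, and capitals mark a run of at least 5 bases that begins with C and holds only pyrimidines. The windows lie, in the order shown, at chr8:107425019-107425048 (minus strand), chr13:97137907-97137936 (minus), chr5:111330687-111330716 (plus), chr2:144270553-144270582 (minus), chr17:83514314-83514343 (minus), chr9:78481705-78481734 (minus), chr10:81176621-81176650 (plus) and chr14:75845246-75845275 (plus). The window of Snx5 lies at a start inside the span of the gene rather than at its outer end. The last 3 belong to classical TOP mRNAs, given for comparison.
Nob1: gtctgtccttgacagccaacatggcgccgg
Nsa2: aggaacggaaagacgtcacggaactgctgt
Pitpnb: gcggcggaagggcgcggacgcgcaggcgct
Snx5: gggatggtggcggagtcccgcggCCTCCag
Cox7a2l: ggggaagccgggtCCTTTTCTagggcggtc
Eef1a1: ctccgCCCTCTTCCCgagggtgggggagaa
Eef2: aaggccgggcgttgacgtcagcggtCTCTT
Tpt1: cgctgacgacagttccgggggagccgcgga

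Cox7a2l carried a run of 8 bases, Snx5 a run of 5, and the windows of Nob1, Nsa2 and Pitpnb carried none. Counted from the annotated start, the run of Cox7a2l began at base 4 and that of Snx5 at base 14, so neither began at the start itself. On the opposite strand the windows of Cox7a2l, Nsa2 and Pitpnb held such a run. Mmgt1 has no entry among these sequences. Such a run is common: 35.8% of 32851 start windows held it on the strand of the gene and 40.7% on the opposite strand, against 59.7% of the 67 windows of ribosomal protein genes. The 2 of 5 windows found here are near that background. Tpt1, a classical TOP mRNA, has none in its window, and Eef1a1 has a run of 10 that begins 5 bases before the annotated start, so that run and annotated start need not coincide. A match is a description of these letters and not of a working motif.

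Nob1 began as a well-translated mRNA and lost about as much TE as a typical ribosomal protein mRNA. Its footprint counts were 796 and 440 in the vehicle mice A and B and 168 and 273 in the AZD-8055 mice C and D. Its RNA-Seq counts were 431 and 465 in vehicle and 470 and 502 after treatment. After scaling, the RNA stood between 319 and 329 in all 4 brains, while the footprints went from 653 and 688 to 359 and 409. The log2 TE was therefore 1.03 and 1.11 in vehicle against 0.13 and 0.32 after treatment, a TE ratio of 0.555. In vehicle brains this put Nob1 at percentile 89.3 of the 10882 genes with at least 75 counts of each kind over both mice, and its treated TE was still above the median of all genes (0.016 in vehicle).

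Nsa2, the other ribosome assembly factor, began near the middle. Its footprint counts were 418 and 243 in vehicle and 119 and 149 after treatment, and its RNA counts were 523 and 564 against 619 and 623. The log2 TE was -0.18 and -0.026 in vehicle and -0.77 and -0.87 in the treated mice, a ratio of 0.608, from percentile 45.1 in vehicle. Both treated brains lay below both vehicle brains, with a gap of 0.59 between the groups, and the 2 mice of either group differed by no more than 1.03 times the error that counting alone gives.

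Pitpnb and Snx5 act on membranes, one at the level of lipid transfer and the other on endosomal tubules. Pitpnb had footprint counts of 466 and 279 in vehicle and 134 and 153 after treatment, on RNA counts of 384 and 394 against 432 and 445. Its log2 TE was 0.43 and 0.69 in vehicle and -0.079 and -0.34 in treated brains, a ratio of 0.586. The spread between mice was the widest of the 6 in vehicle (SD 0.19, n = 2), and the 2 groups still did not overlap.

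Snx5 had the mildest TE change of the 6 genes with RNA counted on CDS, whereas with RNA counted on exons Mmgt1 had the mildest (-0.33 against -0.52). Its footprint counts were 692 and 350 in vehicle and 194 and 253 after treatment, and its RNA counts were 1102 and 1172 against 1193 and 1248. The log2 TE was -0.52 and -0.55 in vehicle and -1.01 and -1.11 in treated mice, a ratio of 0.698 from percentile 27.9. Scaled RNA was 816 and 804 in vehicle and 835 and 816 after treatment, so its lower TE lay in the footprints, which were 28.8% lower on average.

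Cox7a2l was the least efficiently translated of the 6 in vehicle brains, at percentile 21.1. Its footprint counts were 479 and 234 in vehicle and 136 in each treated mouse, and its RNA counts were 902 and 899 against 974 and 1031. The log2 TE was -0.77 and -0.75 in vehicle, and -1.23 in mouse C and -1.73 in mouse D. The treated mice differed from each other by 0.50, which was 2.66 times the counting error and the only pair among the 6 genes to exceed 2 times that error. The fitted change was -0.94 without mouse C and -0.49 without mouse D.

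Mmgt1 had by far the fewest RNA reads on its CDS. They numbered 38 (95% Poisson interval 26.9 to 52.2) and 36 (25.2 to 49.8) in vehicle and 57 (43.2 to 73.9) and 72 (56.3 to 90.7) after treatment. Its footprints were 267 and 137 in vehicle and 77 and 112 in the treated mice. In unscaled counts its CDS thus held more footprints than RNA reads in every brain. On all exons its RNA reads exceeded these footprints, at 778 and 776 in vehicle and 723 and 857 after treatment. The log2 TE was 2.96 and 3.12 in vehicle and 2.04 and 1.83 after treatment, a ratio of 0.467. This was the lowest of the 6 on CDS counts only, since with exon counts for the RNA the fitted change was -0.33 in place of -1.10, the smallest of the 6. The intervals cover counting error only. With 74 RNA reads over both vehicle mice, 1 below the minimum, it has no percentile.

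**Figure D1:**
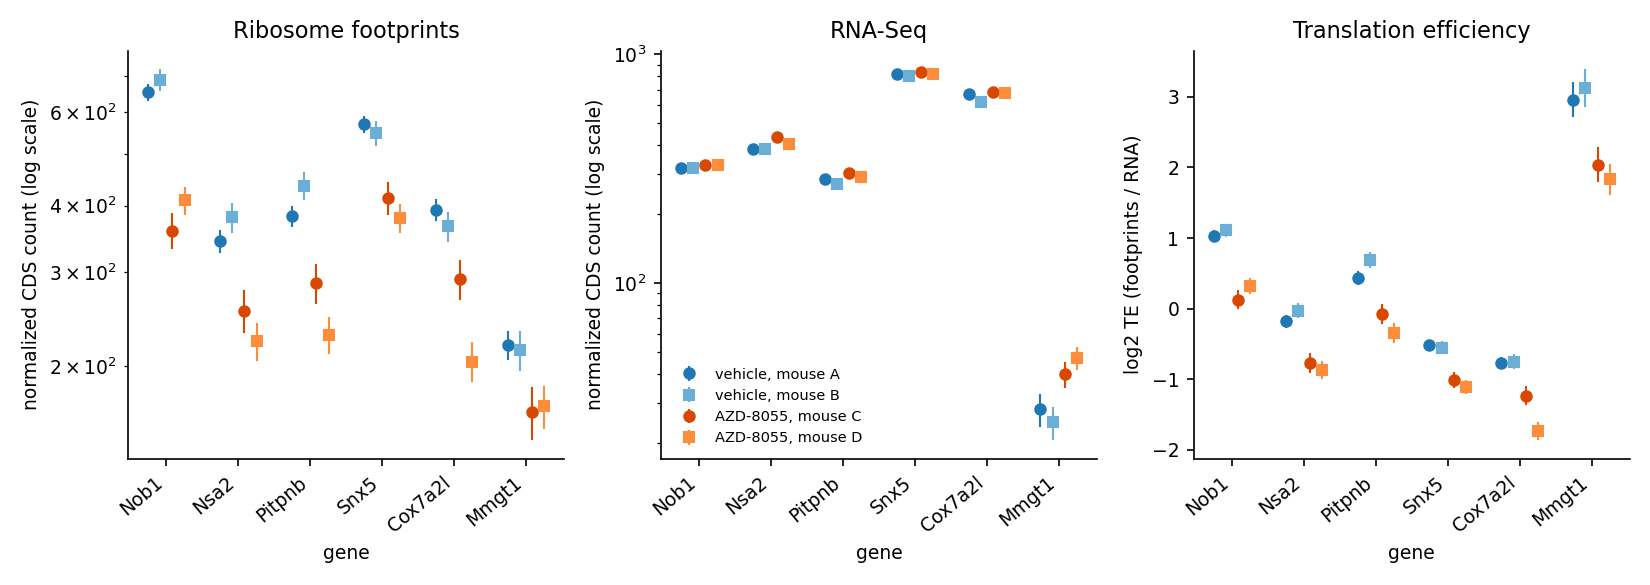
Scaled footprint counts, scaled RNA-Seq counts (both on CDS, log axes) and log2 TE of the 6 genes in vehicle mice A and B (blue) and AZD-8055 mice C and D (orange); bars are 1 counting standard error. The treated mice lie below the vehicle mice in footprints and TE for each gene, while RNA differs by at most 8.60% between group means except for Mmgt1, where it was 64.6% higher after treatment.

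In log2 TE and in scaled footprints both treated mice lay below both vehicle mice for all 6 genes, and TE is what they were chosen by. In scaled RNA on CDS both treated mice lay above both vehicle mice, for Snx5 by less than the digits printed. On exon counts the RNA of the groups overlapped for Cox7a2l, Nsa2, Snx5 and Mmgt1, and for Nob1 and Pitpnb it did not. The share of all genes without overlap was not taken on exon counts. On CDS counts it was taken among 9890 genes with at least 75 counts of each kind in both conditions. Of these, 21.2% had both treated mice lower in TE, 19.5% lower in footprints and 24.6% higher in RNA. Mmgt1 is not among these genes. The fitted edgeR changes in TE were -0.83 ± 0.14 (SE) for Nob1, -0.71 ± 0.15 for Nsa2, -0.76 ± 0.17 for Pitpnb, -0.52 ± 0.11 for Snx5, -0.73 ± 0.16 for Cox7a2l and -1.10 ± 0.26 for Mmgt1, each with 2 mice per group. Fitted RNA changes lay between 0.0055 and 0.096 for 5 genes, with standard errors of 0.067 to 0.096, and at 0.70 ± 0.25 for Mmgt1. The TE change of Mmgt1 thus came more from its RNA reads than from its footprints, which changed by -0.37 ± 0.14, whereas in the other 5 the footprints carried it.

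Over all 11797 genes tested, 0.788% (93) were lower in TE at an adjusted p under 0.05 (edgeR, Benjamini-Hochberg) and 0.0763% (9) were higher. With a change over 2-fold as well these numbers were 35 (0.297%) and 1 (0.00848%), and with the mouse as a block they were 36 and 7. Of the 6 genes 5 were among the 93 and Mmgt1 was not, and none of the 6 but Mmgt1 had a change beyond 2-fold. These counts describe how the genes were chosen. The footprints alone were lower in 0.982% of 10695 genes, with Nob1 among them, and the RNA differed in 0.148% of 12182 genes, with none of the 6 among them.

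Of the 93 genes, 71 were ribosomal protein genes and 15 were other known TOP mRNAs. That left 7, of which 5 are the genes described here. The remaining 2 were Eif2a, a translation initiation factor of its own kind, and Pfdn5, a subunit of the prefoldin chaperone. Eif2a had log2 TEs of 0.27 and 0.14 in vehicle and -0.36 and -0.60 after treatment (change -0.69 ± 0.14, edgeR adjusted p = 0.0163). Pfdn5 had -0.45 and -0.62 against -1.22 and -1.19 (-0.68 ± 0.11, edgeR adjusted p = 0.00236). By size of change both stood between Nsa2 and Snx5, so the genes chosen and those left out are not separated by a threshold.

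On the scale of the classical TOP mRNAs the changes of the 6 genes were middling on CDS counts, while with exon counts for the RNA Mmgt1 was at -0.33. The 6 were chosen for a lower TE in this comparison and the TOP families were taken whole, so the sizes are not strictly comparable. Eef1a1, which brings aminoacyl-tRNA to the ribosome, fell by 1.59 ± 0.084 on the log2 scale (edgeR adjusted p = 6.65e-08) and Eef2, the translocation factor, by 1.17 ± 0.077 (adjusted p = 7.74e-07). Pabpc1, the poly(A)-binding protein, fell by 1.34 ± 0.14 (adjusted p = 4.32e-05) and Tpt1, the translationally controlled tumor protein, by 0.45 ± 0.099 (adjusted p = 0.0421). Of 75 ribosomal protein genes tested, 75 had a change below 0 and 71 were lower at an adjusted p under 0.05 (edgeR). Their median change was -0.90, against -0.011 over all genes. Of 38 other TOP mRNAs, 37 had a change below 0 and 15 passed as lower, with a median of -0.43. Nob1 at -0.83 lay near the median of the ribosomal protein genes and Snx5 at -0.52 near that of the other TOP mRNAs.

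**Figure D2:**
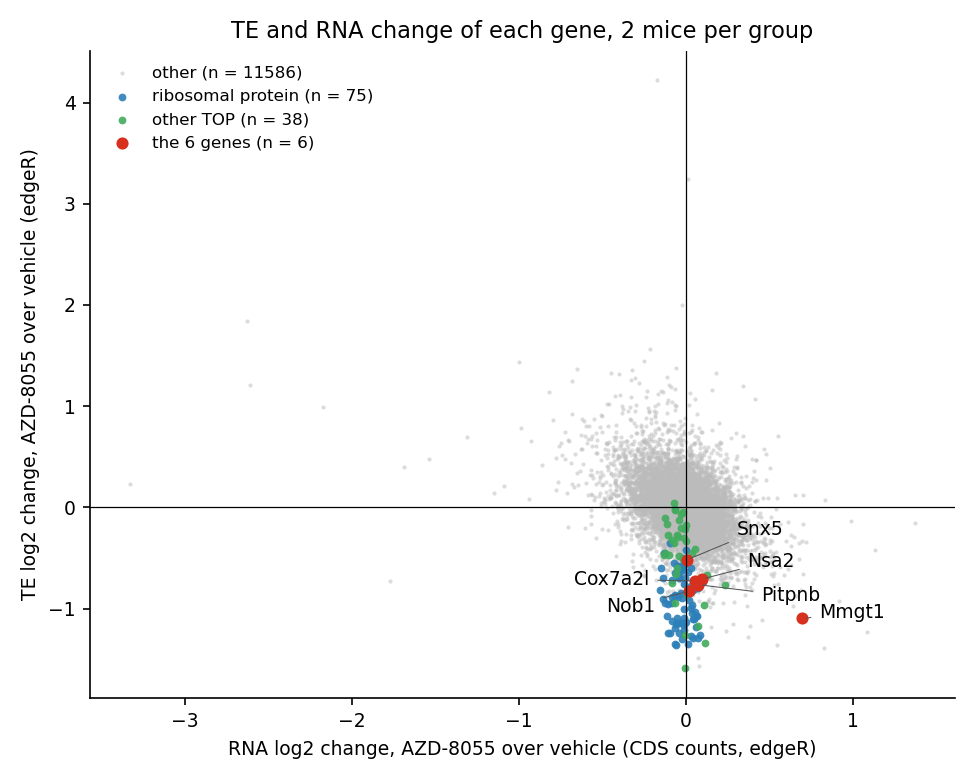
Fitted log2 change in RNA (horizontal) and in TE (vertical) between AZD-8055 and vehicle brains, 1 point per gene, with the 6 genes in red, 75 ribosomal protein genes in blue and 38 other TOP mRNAs in green. Of the 6 red points 5 sit in the column of blue and green points near an RNA change of 0, and Mmgt1 stands to the right at an RNA change of 0.70.

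The partners of each gene were taken from lists of genes with related functions, which hold 135 tested genes besides the 6. At an adjusted p under 0.05, 0 of the 135 were lower in TE and 1 was higher by edgeR, and DESeq2 also called 1. Over all 11797 genes the edgeR shares were 0.788% lower and 0.0763% higher. The 0 lower carries no weight, because outside the TOP lists only 7 genes were lower by edgeR. Of these, 5 are among the 6 genes removed from the lists, and the others, Eif2a and Pfdn5, belong to none of the lists. At an unadjusted p under 0.05, 8 were lower and 4 higher. The footprints gave 0 calls by either tool among 132 partners, with 14 lower and 6 higher at an unadjusted p under 0.05.

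Among 22 other factors of small-subunit maturation, which surround Nob1 in the assembly pathway, 0 passed in either direction and the median was -0.049. The lowest was Utp14a at -0.41 ± 0.18 and the highest Noc4l at 0.39 ± 0.18, and 2 genes on each side passed at an unadjusted p under 0.05. Among 46 factors of the large subunit, the setting of Nsa2, the median was -0.07 and the lowest Spata5 at -0.52 ± 0.19. Mdn1, the giant AAA ATPase that remodels the early large subunit, was the 1 gene that passed as higher in TE (0.74 ± 0.14, edgeR adjusted p = 0.00929). Its RNA fell by 0.72 ± 0.08 (adjusted p = 0.00157), while its footprints changed by 0.036 ± 0.11, so the higher TE lay in the RNA.

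The partners of the 4 membrane genes gave 0 calls in each list by edgeR and by DESeq2. Among 14 genes of phosphatidylinositol transfer and phosphatidylinositol 4-phosphate handling the changes ran from -0.35 ± 0.12 (Col4a3bp, the ceramide carrier) to 0.25 (Pitpnm3), with 1 at an unadjusted p under 0.05. Among 30 sorting nexins and retromer genes they ran from -0.51 (Snx33) to 0.44 (Snx15), with 2. In 14 genes of complex IV they ran from -0.32 (Cox4i1) to 0.24 (Cox6a2), with 1, and in 9 other EMC subunits from -0.20 (Emc6) to 0.23 (Emc8), with 0.

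The closest paralogs, which were not among the genes chosen, are described by their values. Cox7a2, the paralog of Cox7a2l that sits in complex IV itself, changed by -0.028 ± 0.11, and Pitpna and Pitpnc1 by -0.18 ± 0.12 and 0.17 ± 0.20. Snx6 and Snx32, the sorting nexins most like Snx5, changed by -0.048 ± 0.16 and 0.099 ± 0.12, and Snx1 and Snx2, its partners in the dimer, by -0.014 ± 0.11 and -0.081 ± 0.12. Of these 7 genes 0 passed in edgeR or DESeq2, also at an unadjusted p under 0.05 in edgeR. Whether a gene and its paralog differ was not tested.

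**Figure D3:**
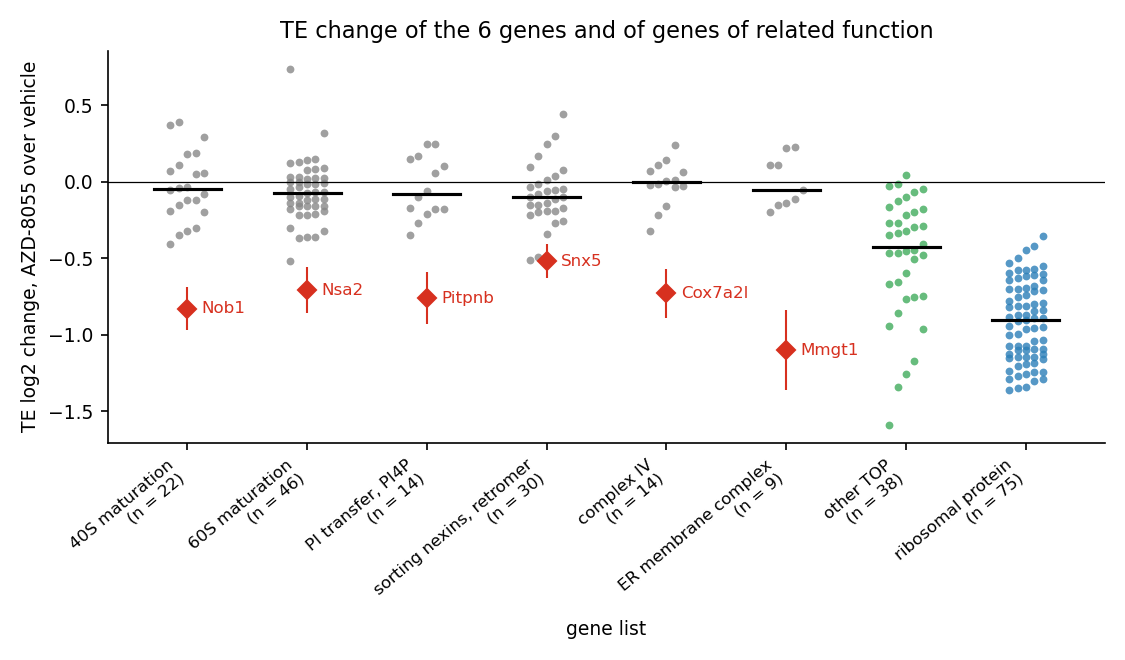
Fitted log2 TE change between AZD-8055 and vehicle brains for each of the 6 genes (red diamonds, bars 1 standard error) beside the tested genes of its functional list (gray), the other TOP mRNAs (green) and the ribosomal protein genes (blue), with medians as black lines. The gray medians lie between -0.10 and -0.0042, and the blue median lies at -0.90.

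Genes with the most similar profiles over all 12 CDS libraries (log2 of scaled count plus 1, 12014 genes) were taken as a description. These points share mice, and most of their spread lies between footprints, RNA and IP. They include the footprint and RNA libraries of mice A to D on which the 6 genes were chosen, so likeness to mRNAs with a lower TE is partly built in. Snx5 was most like Eef1a1 (Pearson r = 0.995), itself a TOP mRNA, and AA415398 (0.99). Cox7a2l was most like Ddx50 and Rpl21 (both 0.99), and Nsa2 like Rps25 (0.985) and Utp14a (0.982). Nob1 was most like Srprb (0.977) and Spata5 (0.966), Pitpnb like Srp72 (0.926) and Iars (0.904), and Mmgt1 like Prkaa1 (0.995) and Slc38a1 (0.993). The 6 did not share a profile, since r ran from 0.96 between Cox7a2l and Snx5 to -0.91 between Cox7a2l and Mmgt1.

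The RiboTag libraries address a separate question, whether an mRNA is enriched in tagged polysomes of excitatory neurons relative to RNA of the whole homogenate. In this ratio, expression in these neurons and loading onto their ribosomes cannot be told apart. On exon counts, 33.7% of 13254 genes were higher in IP than in input at an adjusted p under 0.05 (edgeR) and 35.7% were lower. Nob1, Nsa2 and Cox7a2l were higher, Mmgt1 was lower, and Pitpnb and Snx5 did not pass, which is near this background. This test did not pair the input and IP of a mouse. With the mouse as a block Pitpnb also passed as higher (edgeR adjusted p = 0.00348). All 6 changes were smaller than 2-fold, the limit that 11.7% of genes passed as higher and 21.8% as lower. Of 6 excitatory neuron markers 5 were higher in IP, and all 35 tested markers of the other 6 cell types were lower, with list medians from -3.66 to -2.09 and none at 0 counts.

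Nob1 had scaled exon counts of 565 and 460 in the inputs of mice E and F and 1067 and 958 in their IPs, a log2 enrichment of 0.92 and 1.06 (edgeR change 0.87 ± 0.14, adjusted p = 0.00168). Cox7a2l went from 2227 and 2437 to 4129 and 4421, an enrichment of 0.89 and 0.86 (0.76 ± 0.096, adjusted p = 0.000687). Nsa2 went from 837 and 907 to 1297 and 1420, an enrichment of 0.63 and 0.65 (0.52 ± 0.11, adjusted p = 0.00494). In these 3 genes each mouse gave nearly the same enrichment, and both IPs lay above both inputs. Both IPs also lay above both inputs for Pitpnb, and below both inputs for Mmgt1. The share of all genes without overlap between IP and input was not taken, so this separation is a description only. The values per mouse use DESeq2 size factors, with a median enrichment of 0.081 over all genes, and the edgeR changes use TMM, with a median of -0.034.

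Pitpnb went from 1692 and 1614 to 2148 and 2076, an enrichment of 0.34 and 0.36. The edgeR change of 0.24 ± 0.09 did not pass (adjusted p = 0.0541), and it passed with the mouse as a block (adjusted p = 0.00348). Snx5 gave 1781 and 1984 in input and 1971 and 2118 in IP, an enrichment of 0.15 and 0.094, and a change of 0.0021 ± 0.10 (edgeR adjusted p = 0.986). Here the lower IP lay below the higher input, so the groups overlapped. Mmgt1 had 915 and 1051 in input and 718 and 764 in IP, an enrichment of -0.35 and -0.46 (-0.52 ± 0.12, edgeR adjusted p = 0.00685).

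In the functional lists, genes of most lists were called in both directions in the RiboTag test. Of 9 other EMC subunits 7 were higher in IP and 0 lower, with a median of 0.94, while Mmgt1 itself was lower. Of 14 complex IV genes 13 were higher, with a median of 1.47, and Cox6a2 was lower. Among the large-subunit factors 24 of 46 were higher and 7 lower, among the small-subunit factors 9 of 22 and 6, among sorting nexins and retromer genes 13 of 30 and 7, and among phosphatidylinositol genes 5 of 15 and 5. Of the paralogs, Cox7a2 (1.48 ± 0.12, edgeR adjusted p = 0.000145) and Pitpna (0.77 ± 0.092, adjusted p = 0.000544) were higher and Pitpnc1 (-0.92 ± 0.10, adjusted p = 0.0004) was lower.

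**Figure D4:**
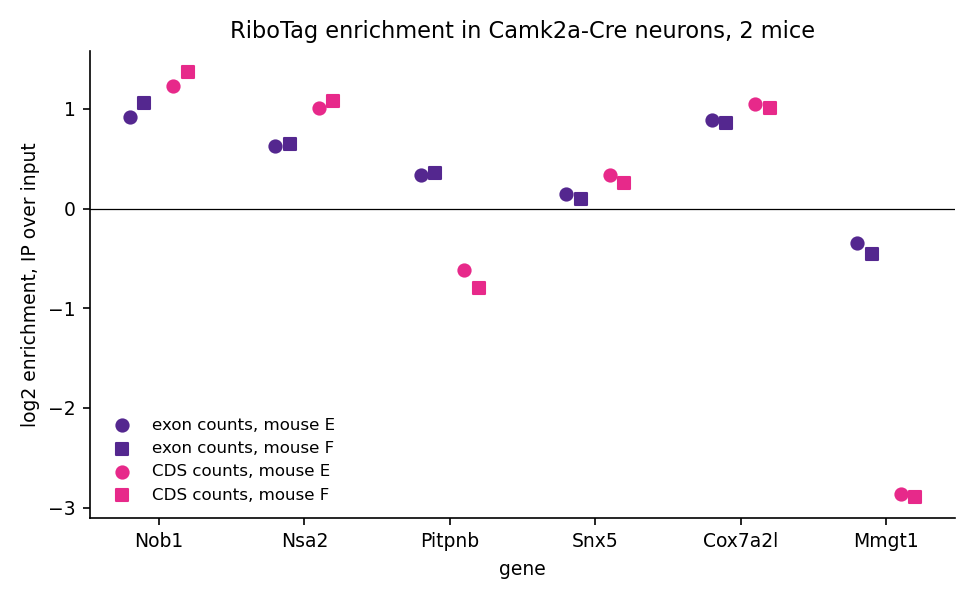
Log2 enrichment of each gene in the RiboTag IP over input for mouse E (circles) and mouse F (squares), on exon counts (purple) and on CDS counts (pink). The mice sit close together for each gene, while the 2 kinds of count part for Pitpnb (0.34 and 0.36 on exons, -0.62 and -0.80 on CDS) and Mmgt1 (-0.35 and -0.46 against -2.86 and -2.89).

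Which part of the gene is counted mattered for 2 of the 6. On CDS counts Nob1, Nsa2 and Cox7a2l stayed higher in IP at changes of 1.16 ± 0.14, 0.91 ± 0.12 and 0.89 ± 0.14 (edgeR adjusted p = 8.92e-05, 0.000159 and 0.000312), against 36.5% of 12211 genes higher and 39% lower. Pitpnb turned to -0.84 ± 0.16 (adjusted p = 0.00128). Its CDS counts were 598 and 692 in input and 197 and 169 in IP, while its exon counts outside the CDS were 1264 and 1601 against 1416 and 1632. Mmgt1 went to -2.99 ± 0.39 (adjusted p = 0.000119), with CDS counts of 72 and 104 in input and 5 (95% Poisson interval 1.62 to 11.7) and 6 (2.2 to 13.1) in IP. Of 12153 genes tested on both kinds of count, 13.1% had opposite signs, as Pitpnb did, and in 7.3% the CDS change lay at least 1 below the exon change, as in Pitpnb and Mmgt1. Pitpnb and Mmgt1 were singled out after their values were seen.

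The share of a gene's exon reads that lay on its CDS made the contrast plain. For Pitpnb it was 32.1% and 30.2% in the inputs of mice E and F and 12.2% and 9.38% in their IPs. For Mmgt1 it was 7.15% and 6.97% in input and 0.928% and 0.905% in IP, so nearly all of its exon reads in IP lay outside the annotated CDS. Relative to its input, the share moved less in the other 4 genes, in Nob1 for instance from 83.8% and 82.3% to 76.8% and 71.4%. Taken over all genes, exon counts exceeded CDS counts by a median of 0.56 and 0.58 on the log2 scale in input and of 0.88 and 0.99 in IP, so the IP libraries held relatively fewer CDS reads for the typical gene too, and the part of this in the values of Pitpnb and Mmgt1 was not tested.

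The same share differed between the treatment groups for Mmgt1. It was 4.88% and 4.64% in the vehicle mice and 7.88% and 8.4% in the treated mice, while the 4 brains gave 25.8% to 26.8% for Pitpnb. On all exons the scaled RNA of Mmgt1 was 880 and 816 in vehicle and 781 and 855 after treatment, a change of -0.051 ± 0.078, where the CDS counts gave 0.70 ± 0.25. With exon counts in place of CDS counts for the RNA, its TE change was -0.33 ± 0.15 in place of -1.10. This fit was chosen after seeing the data. The other 5 genes kept their values under it, from -0.52 ± 0.11 for Snx5 to -0.86 ± 0.13 for Nob1, with exon RNA changes between 0.019 and 0.073. The lower TE of Mmgt1 therefore rested mainly on a small number of RNA reads within its CDS.

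**Figure D5:**
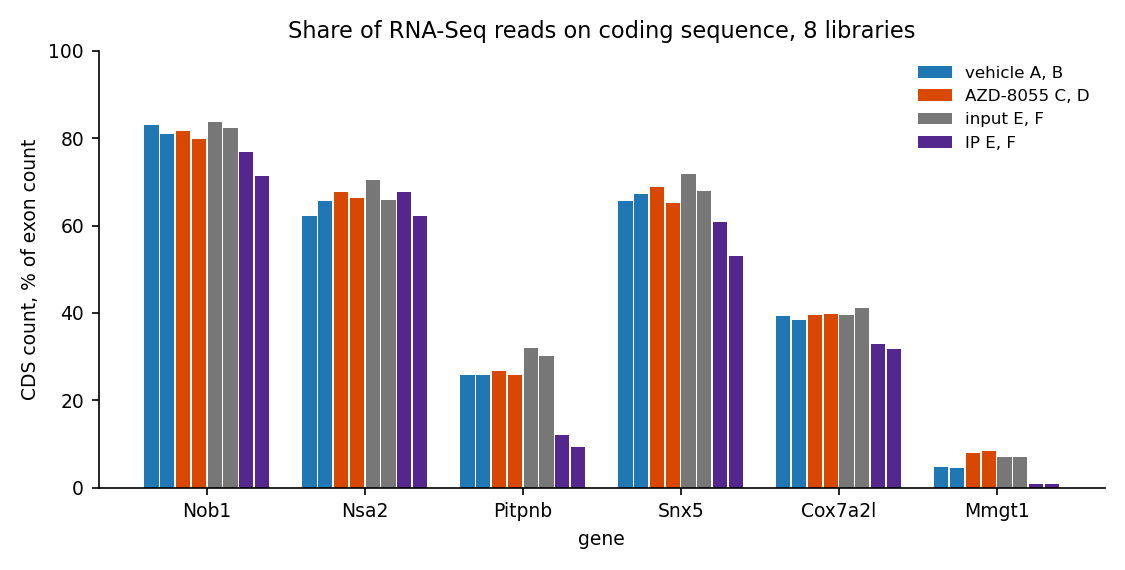
CDS count as a percentage of the exon count of each gene in the 8 RNA-Seq libraries, with vehicle mice in blue, AZD-8055 mice in orange, inputs in gray and RiboTag IPs in purple, 1 bar per library. The purple bars of Pitpnb (12.2% and 9.38%) stand well below its gray bars (32.1% and 30.2%), and all bars of Mmgt1 are below 10%.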

How the data were processed

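The authors deposited unnormalized counts of uniquely mapped reads per gene, on CDS in 12 libraries and, for RNA-Seq, on exons in 8. Footprint reads were trimmed, clipped of poly(A), cleared of rRNA by Bowtie2, mapped by TopHat2, and assigned to genes by HTSeq under strict intersection. The versions are not given in the sources used here, and the submitters' processing notes name mm10. All columns were mapped to labelled samples, and 27 symbols turned into dates (0.35% of CDS counts) could not be named.

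TE per mouse used DESeq2 1.42.0 size factors. Changes were fitted with edgeR 4.0.16 (R 4.3.3) by its quasi-likelihood test with TMM scaling and Benjamini-Hochberg adjusted p under 0.05, over all genes averaging 37 counts or more per library, the TE change as the interaction of assay and treatment. RiboDiff, which the study used, was not installed. TE and IP calls with a fold limit needed over 2-fold. The code was tested on simulated data.

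The 6 genes and the lists were chosen with earlier results of these data known. Genes named were these 6, the lowest and highest TE change of each list with any called, close paralogs, 4 TOP mRNAs for scale, the most similar profiles and TE falls outside the TOP lists. Same-lettered libraries come from the same animal. Across genes, differences between mice correlated between RNA and footprints at 0.236 (A, B) and 0.225 (C, D), and between input and IP at 0.558.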

Additional observations from a re-analysis of the deposited data

How the results depend on the processing

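The alternatives were DESeq2, size factors (RLE), no filter on low counts, a mean of at least 100 counts, no limit on the fold change, swapping CDS and exon counts, the mouse as a block and leaving out each mouse. The TE count over 2-fold was 35 genes lower (27 to 37 without a mouse, 93 with no fold limit) and 1 higher, which became 0 with DESeq2 or a mean of 100 counts, 3 with exon counts for the RNA, 7 with the mouse as a replicate block, 13 with no filter, 9 with no fold limit and 0 without mouse A or 4 without mouse C.

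Genes lower in RNA numbered 11, against 21 with DESeq2, 48 with no filter, 29 without mouse A, 23 without mouse D and 10 without mouse B. Genes higher numbered 7, against 30 with no filter, 4 without mouse A, 3 without mouse B and 13 without mouse D. Genes lower in footprints numbered 105, against 204 with no filter, 61 without mouse B, 188 without mouse D and 482 without mouse C. Genes higher numbered 5, against 13 with DESeq2, 60 with no filter, 21 at a mean of 100 counts, 2 without mouse A, 3 without mouse B, 77 without mouse D and 355 without mouse C. These footprint counts therefore turn on single libraries, and the cause was not tested.

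In the RiboTag test over 2-fold, 2888 genes were lower (4731 with no fold limit) and 1545 higher (4463 with no fold limit, 2493 on CDS counts, 2496 on CDS counts with the mouse as a replicate block). The change of Pitpnb was 0.24, also with the block, and it passed with the block (adjusted p = 0.00348), with size factors (0.27, adjusted p = 0.035) and with no filter (0.33, adjusted p = 0.0183), and reversed on CDS counts (-0.84, also with the block, adjusted p = 5.33e-06). Snx5 was 0.0021 and turned to -0.055 at a mean of 100 counts, far from the threshold in both (edgeR adjusted p = 0.986 and 0.655). The block changed no other call of the 6 genes in this test. In 1 mouse alone, with no test, the exon changes kept their sign in each of the 6 genes, the lowest being -0.46 and the highest 1.06.

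The TE changes of the 6 genes stayed below 0 in every fit that gave one, between -1.20 and -0.33, a direction fixed by their choice. Vehicle log2 TE was 0.43 to 0.69 for Pitpnb when 1 mouse was left out. Mmgt1 was too low for a fit of TE at a mean of 100 counts. Depth limits Mmgt1 most, with 36 to 72 RNA reads on CDS, and 2 mice per group limit all.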
